A study of Rattus norvegicus with 24 samples.

Results

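The genes described here encode the subunits, activators and assembly factors of the proteasome. They are the rows of the deposited count table whose symbol is Psm, a letter from a to g and a number, together with Pomp. The table held 49 such genes among 21767 gene symbols, and 47 of them passed the filter on low counts and were tested among 14303 genes. The genes left out of testing were Psma8 and Psmb11, whose counts are given at the end.

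Neonatal rat ventricular myocytes are heart muscle cells isolated from newborn rats, here of the Sprague-Dawley strain, and kept as primary cultures. They were transfected with microRNA mimics, double-stranded RNAs that act as a mature microRNA, at 5 nM each, and 48 h later were given doxorubicin, an anthracycline chemotherapy drug that damages heart muscle, or a control treatment for 24 h. The 8 groups of 3 libraries were doxorubicin with miR-222-3p mimic, doxorubicin with miR-455-3p mimic, doxorubicin with both mimics, doxorubicin with a negative control mimic, and the control treatment with miR-222-3p mimic, with miR-455-3p mimic, with both mimics and with the negative control mimic. Libraries are written below by treatment, mimic and replicate number, so that Dox/control 1 is the first replicate with doxorubicin and the control mimic, and NoDox/control 1 its counterpart without the drug. Every group was transfected, so none shows untransfected cells, and the wells with both mimics received 5 nM of each. The doxorubicin dose is 4 uM in the sample protocol and is given in another unit in the series text, so the dose was not settled here.

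The proteasome degrades proteins tagged with ubiquitin. Its barrel-shaped 20S core holds rings of alpha subunits, which form the gate, and rings of beta subunits, of which Psmb5, Psmb6 and Psmb7 carry the protein-cutting sites. A 19S cap of ATPases (Psmc genes) and non-ATPase subunits (Psmd genes) binds, unfolds and feeds in the substrate. Interferons induce the alternative catalytic subunits Psmb8, Psmb9 and Psmb10, which replace Psmb5, Psmb6 and Psmb7 to form the immunoproteasome, and the PA28 activator genes Psme1 and Psme2, and both help to make peptides for MHC class I. In heart muscle, proteasome activity clears damaged and misfolded contractile proteins.

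The mature rat sequences of the mimicked microRNAs in RefSeq (build GRCr8) are shown because their seeds, bases 2 to 8 in capitals, set which messages each can pair with. The seeds differ, so the microRNAs belong to different seed families. They lie at chrX:6022682-6022702, plus strand, and chr5:81704881-81704902, plus strand. The sequence of the commercial mimics was not given in the sources used here.
rno-miR-222-3p: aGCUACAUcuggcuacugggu
rno-miR-455-3p: gCAGUCCAcgggcauauacacu

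The libraries held 17311949 to 25750309 counts and 11469 to 13524 genes with at least 10 counts. Mitochondrially encoded genes took 5.54 to 38.2% of the counts. The 4 gene-poorest libraries were Dox/control 1, Dox/both 2, NoDox/control 1 and NoDox/both 3. Member calls lost when all 4 are removed are given beside the result. Genes called only without these 4 are named in part, so a gene described as not called refers to the fit on all libraries. All 7 cardiomyocyte markers were detected in every group, and their summed level ran from 12208 to 36599 CPM (counts scaled to library size) across libraries; 7 of 8 fibroblast markers were also in the table, with a summed level of 14784 to 52854 CPM. In such bulk samples, fewer cells of a type and less RNA per cell cannot be told apart. All levels below are CPM scaled by the trimmed mean of M values (TMM), which sets the bulk of genes equal between libraries. On raw totals the proteasome genes took 0.244 to 0.368% of the counts in the 12 libraries with doxorubicin, and 0.363 to 0.521% in the 12 without. Without TMM the median log2 fold change of all genes with doxorubicin and the control mimic was -0.65, so the fold changes below are relative to the bulk of genes. Log2 fold changes are given with their standard error, and a gene was called where its edgeR p, adjusted by Benjamini-Hochberg over all genes of the comparison, was under 0.05. The labels do not say that replicates came from separate animals or cultures, so a p-value here reflects the spread among the sequenced samples alone, which may be technical.

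Doxorubicin with the control mimic split the proteasome genes: 10 of 47 rose, 11 fell and 26 were not called. Those called were 44.7% of the members, beside 27.5% of all genes tested (15.2% higher and 12.3% lower). The largest rises were those of Psmb9, Psmb10, Psme1 and Pomp, and the largest falls those of Psmd14, Psmc6, Psmg4 and Psmd12. The median log2 fold change was -0.22 over the members and 0.02 over all genes. Averaged over the 4 mimic conditions, which gives more libraries per side, 12 rose and 16 fell, 59.6% beside 48.1% of all genes, 23.8% higher and 24.3% lower. The split depends on the scaling: on library totals without TMM, 3 members rose and 25 fell with the control mimic, and 3 rose and 31 fell over the mean, while the median of the members was -0.97 and -0.59, beside -0.65 and -0.52 over all genes. Leaving out single libraries with the control mimic changed the count of 21 called to between 14 (without Dox/control 2) and 25 (without NoDox/control 3). Without Dox/control 3 or NoDox/control 1 it was 15, and without the 4 gene-poorest libraries it was 26. Among the genes named below, the control-mimic calls lost without these 4 were those of Psma1 (adjusted p = 0.112), Psmd7 (0.0519) and Psmg1 (0.0892). Psma4 was then called lower (-0.69 ± 0.18, adjusted p = 0.00551), as were Psmc1, Psmc2, Psmd1, Psmd3, Psmd4, Psmd6 and Psme4 (adjusted p 0.00133 to 0.0373).

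**Figure D1:**
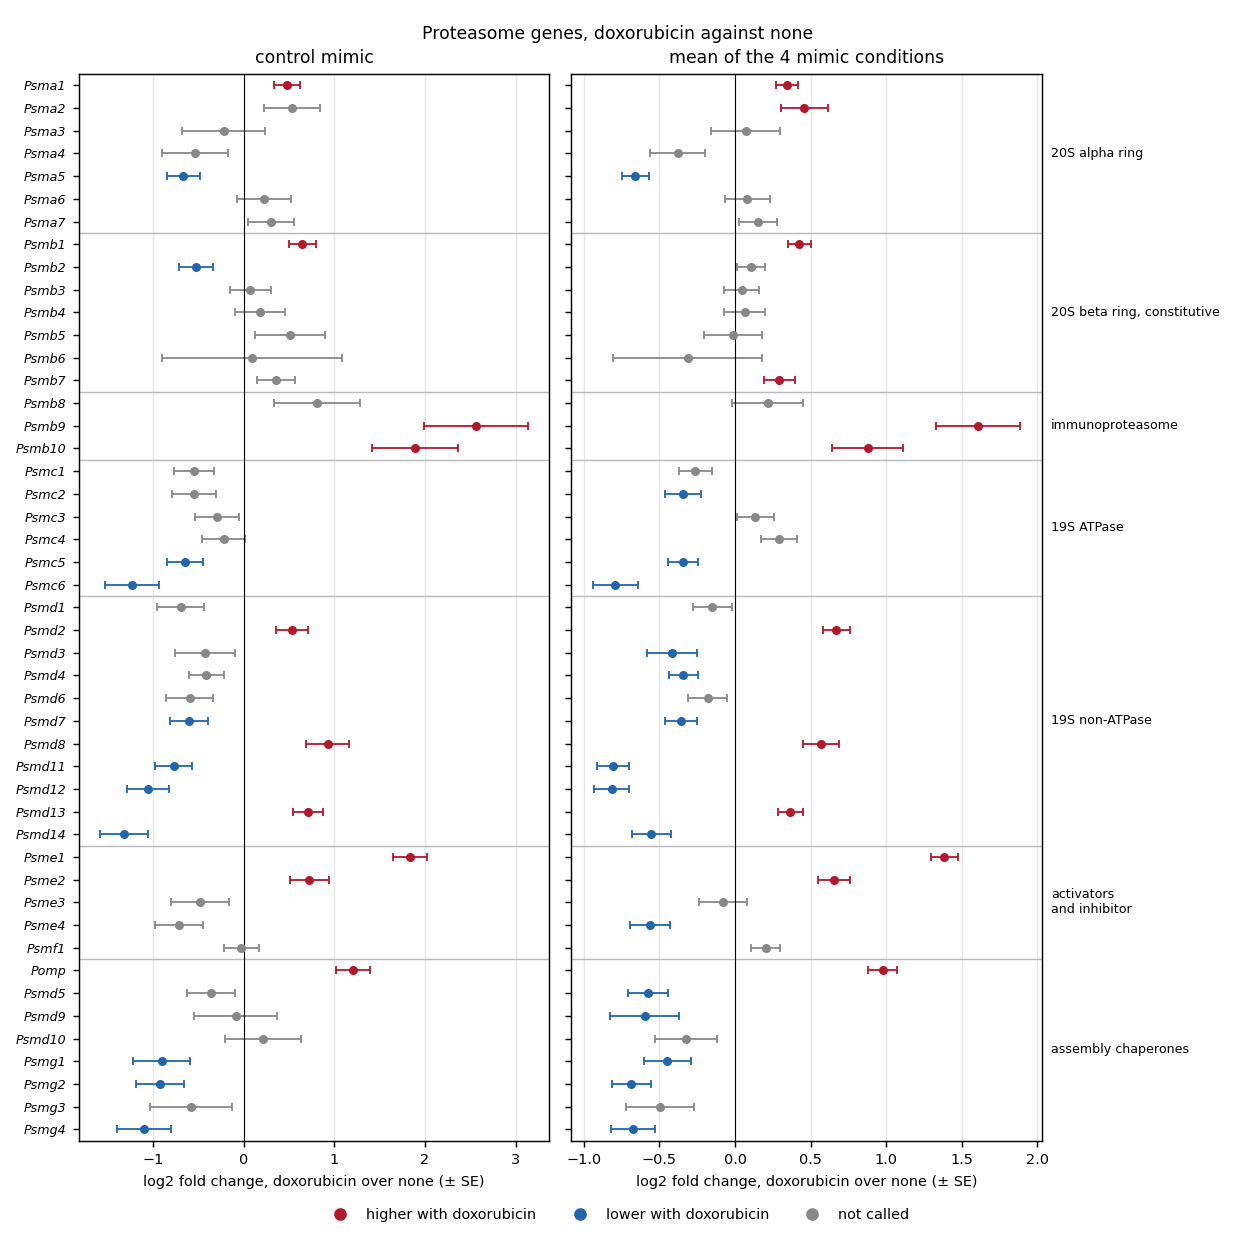
Log2 fold change (x axis, with standard error) of the 47 tested proteasome genes (y axis, by role) for doxorubicin over no doxorubicin, with the control mimic on the left and averaged over the 4 mimic conditions on the right; red points were higher, blue lower and grey not called at an adjusted p of 0.05. Psmb9, Psmb10, Psme1 and Pomp lie farthest to the right with the control mimic, while Psmd14, Psmc6 and Psmg4 lie farthest to the left.

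The immunoproteasome subunits did not move as a unit. Psmb9, which replaces the caspase-like subunit Psmb6, had 3.43, 7.47 and 7.90 CPM in the 3 Dox/control libraries, against 0.298, 1.19 and 1.70 CPM in the 3 NoDox/control libraries. Psmb10, which replaces the trypsin-like subunit Psmb7, had 11.6, 9.12 and 12.9 CPM with doxorubicin, against 1.28, 3.29 and 4.51 CPM without. For both genes every library with the drug was above every library without it. Psmb9 rose by a log2 fold change of 2.56 ± 0.57 (adjusted p = 0.00246) and Psmb10 by 1.89 ± 0.48 (adjusted p = 0.00604). Psmb8, which replaces the chymotrypsin-like subunit Psmb5, had 4.34, 4.18 and 5.54 CPM with doxorubicin, against 0.639, 3.37 and 4.02 CPM without, where NoDox/control 1 stands far below the others. Its groups did not overlap, but the difference of 0.81 ± 0.48 was not called (adjusted p = 0.223). NoDox/control 1, one of the gene-poorest libraries, was the lowest of its group for all 3 subunits; without the 4 gene-poorest libraries, Psmb9 was 2.34 ± 0.31 higher (adjusted p = 3.11e-05) and Psmb10 was 1.43 ± 0.51 higher (adjusted p = 0.0358). The Psmb10 call was lost on library totals without TMM.

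With miR-455, Psmb9 had 4.11, 4.94 and 4.08 CPM with doxorubicin, against 0.918, 1.04 and 1.10 CPM without, a rise of 2.10 ± 0.57 (adjusted p = 0.0135) that was lost without NoDox/miR-455 1 (adjusted p = 0.067). With miR-222 it had 4.87, 5.83 and 4.76 CPM, against 2.86, 3.01 and 2.83 CPM, and with both mimics 3.38, 1.43 and 2.58 CPM, against 1.98, 1.41 and 0.412 CPM. The 3 Dox/miR-222 libraries lay above the 3 NoDox/miR-222 libraries, while the groups with both mimics overlapped, and neither difference was called (0.83 ± 0.54, adjusted p = 0.357, and 0.95 ± 0.55, adjusted p = 0.27). Without the 4 gene-poorest libraries both were called, at 0.79 ± 0.24 with miR-222 (adjusted p = 0.0167) and 0.80 ± 0.30 with both mimics (adjusted p = 0.0489). Psmb10 had 9.17, 9.30 and 9.62 CPM with doxorubicin and miR-222, against 5.24, 4.41 and 17.5 CPM with miR-222 alone. It had 8.16, 8.23 and 9.35 CPM, against 4.87, 6.40 and 3.82 CPM, with miR-455, and 9.40, 4.85 and 4.98 CPM, against 3.61, 3.46 and 4.03 CPM, with both. NoDox/miR-222 3 stood apart, above every other library without the drug; the groups overlapped with miR-222 only, and Psmb10 was called in none of these 3 comparisons. Psmb8 had 8.65, 12.2 and 8.61 CPM with doxorubicin and miR-222, against 9.63, 10.1 and 7.99 CPM with miR-222 alone. It had 6.16, 5.39 and 6.96 CPM, against 5.87, 4.15 and 7.50 CPM, with miR-455, and 7.05, 5.91 and 5.04 CPM, against 6.91, 9.48 and 3.07 CPM, with both. These groups overlapped in every pair, the differences ran from -0.11 to 0.09 and changed sign when single libraries were left out, and none was called. Averaged over the 4 mimic conditions, Psmb9 rose by 1.61 ± 0.28 (adjusted p = 7.51e-05) and Psmb10 by 0.88 ± 0.23 (adjusted p = 0.00392), while Psmb8 differed by 0.22 ± 0.23 (adjusted p = 0.474). No difference between the doxorubicin effects with a mimic and with the control mimic was called for these subunits. Without the 4 gene-poorest libraries, that of Psmb9 with both mimics was called (-1.54 ± 0.42, adjusted p = 0.0337), and under doxorubicin Psmb9 was then lower with both mimics than with the control mimic (-1.35 ± 0.29, adjusted p = 0.00675).

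**Figure D2:**
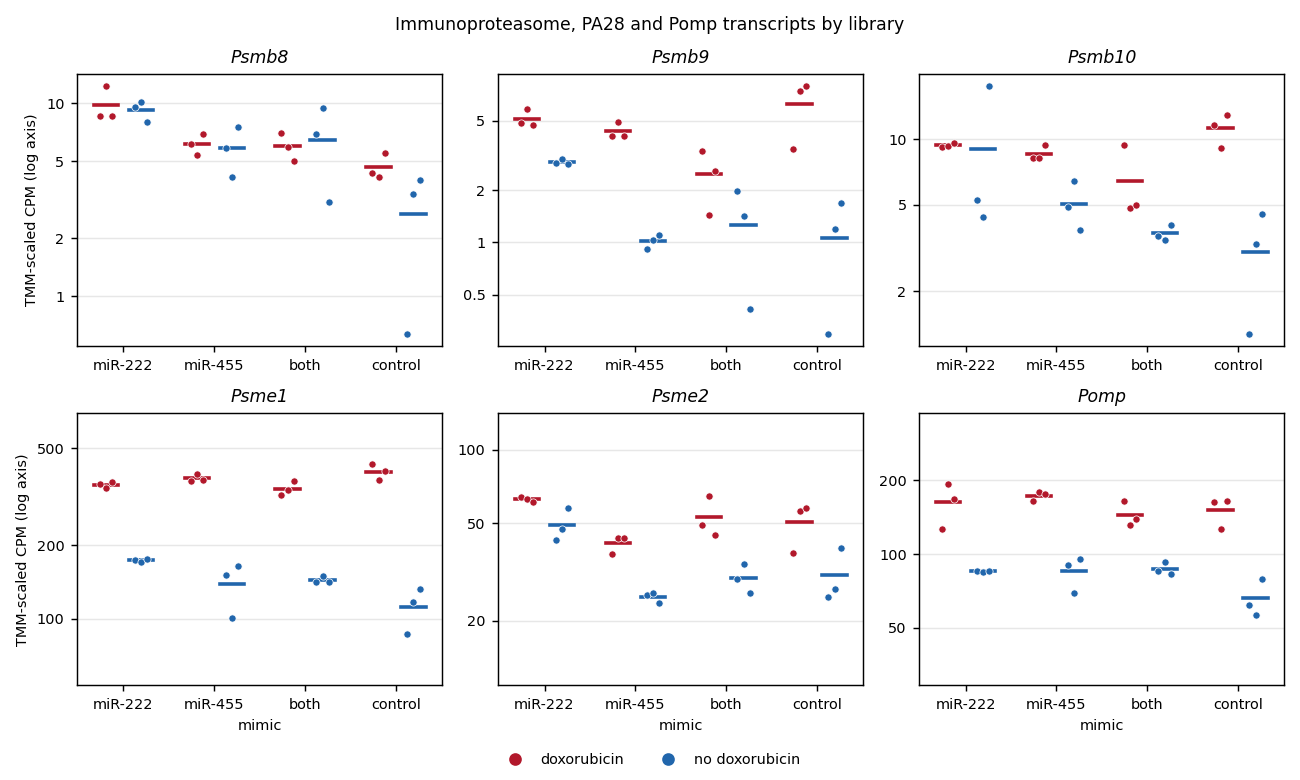
TMM-scaled CPM (y axis, log scale) of Psmb8, Psmb9, Psmb10, Psme1, Psme2 and Pomp in each of the 24 libraries, by mimic (x axis); red points are libraries with doxorubicin, blue points libraries without, and bars are group means of 3. Psme1 and Pomp separate red from blue under every mimic, Psmb9 does so under miR-222, miR-455 and the control mimic, and Psmb8 is higher in blue under miR-222 than under the control mimic.

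The constitutive partners that these subunits replace were not called with doxorubicin and the control mimic. Psmb5, the chymotrypsin-like subunit, had 45.1, 83.3 and 94.7 CPM with doxorubicin, against 21.3, 56.6 and 78.6 CPM without, and the groups overlapped (0.51 ± 0.38, adjusted p = 0.347). Psmb7, the trypsin-like subunit, had 101, 96.6 and 101 CPM, against 67.3, 74.4 and 90.5 CPM (0.36 ± 0.21, adjusted p = 0.211). Psmb6, the caspase-like subunit, had 5.25, 31.1 and 22.4 CPM with doxorubicin, against 3.58, 14.9 and 36.8 CPM without (0.10 ± 0.99, adjusted p = 0.96). Its level swung between libraries of a group and was listed at 0 in NoDox/both 3; its values were not whole numbers in 23 of 24 libraries, RefSeq names 3 further copies of the gene, and its levels are uncertain. Across the mimic conditions Psmb5 and Psmb6 were not called in any doxorubicin comparison on all libraries. Without the 4 gene-poorest libraries, Psmb5 was called lower with both mimics (-0.61 ± 0.23, adjusted p = 0.0484). Psmb6 was then called lower over the mean of the 4 conditions (-0.46 ± 0.17, adjusted p = 0.0245). Psmb7 was called only for the mean of the 4 conditions (0.29 ± 0.10, adjusted p = 0.025), a call lost without Dox/miR-222 2 (adjusted p = 0.0558), NoDox/miR-222 1 (0.0599), NoDox/miR-222 2 (0.0508), NoDox/miR-222 3 (0.0682), NoDox/miR-455 2 (0.0731), NoDox/both 3 (0.0677), NoDox/control 1 (0.0739) or NoDox/control 2 (0.0653), or without the 4 gene-poorest (0.2), and turned in sign to -0.22 on totals without TMM.

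Promoter windows are shown for the immunoproteasome and PA28 genes, which interferons are known to induce. RefSeq promoters (build GRCr8, 250 bases before to 50 after the start site) were matched for 44 of the 49 genes. The interferon-stimulated response element was searched as GAAA, any 2 bases, then GAAA, the gamma-activated site as TTCNNNGAA and the antioxidant response element as TGACNNNGC, all on both strands, and capitals mark the matches. Each member was counted on the first window listed for its symbol, while the shares over all windows have no such limit. The interferon element was present in 7 of 44 member windows (15.9%: Psma4, Psmb3, Psmb8, Psmb10, Psmd7, Psme2 and Psmg4), beside 3.92% of 33469 windows. TTCNNNGAA was in 4 of 44 (9.09%), beside 8.87%, and TGACNNNGC in 8 of 44 (18.2%), beside 12.1%. Psmb10 held the interferon element at 2 positions, starting 73 and 17 bases before the start site, and Psme2 held it 53 bases before. Psmb8 held the interferon element 4 bases before on the strand opposite to the gene, with a gamma-activated site 245 bases before. Psmb9 and Psme1 held none of the 3 motifs in these windows. The Psme1 window ends in tttcgctt, the letters with which the Psmb8 match TTTCGCTTTC begins. A match running past the window edge would be missed, so for Psme1 the absence holds for this window only. A match describes letters in a window and not a bound site. The windows lie at chr19:50743243-50743542, minus strand (Psmb10), chr20:4656982-4657281, minus strand (Psmb8), chr20:4668750-4669049, plus strand (Psmb9), chr15:33052702-33053001, minus strand (Psme2), and chr15:33038721-33039020, plus strand (Psme1).
Psmb10: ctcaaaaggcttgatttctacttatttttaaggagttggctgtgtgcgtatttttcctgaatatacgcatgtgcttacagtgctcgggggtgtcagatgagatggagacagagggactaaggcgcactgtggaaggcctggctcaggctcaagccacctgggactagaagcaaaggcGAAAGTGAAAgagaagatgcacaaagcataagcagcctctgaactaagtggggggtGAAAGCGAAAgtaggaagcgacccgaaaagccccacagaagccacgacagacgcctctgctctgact
Psmb8: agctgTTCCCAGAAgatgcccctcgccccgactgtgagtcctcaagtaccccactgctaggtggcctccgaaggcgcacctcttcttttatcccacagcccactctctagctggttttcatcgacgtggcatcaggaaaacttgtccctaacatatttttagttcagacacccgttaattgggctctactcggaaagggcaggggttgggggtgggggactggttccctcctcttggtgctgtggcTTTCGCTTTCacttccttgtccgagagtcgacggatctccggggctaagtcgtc
Psmb9: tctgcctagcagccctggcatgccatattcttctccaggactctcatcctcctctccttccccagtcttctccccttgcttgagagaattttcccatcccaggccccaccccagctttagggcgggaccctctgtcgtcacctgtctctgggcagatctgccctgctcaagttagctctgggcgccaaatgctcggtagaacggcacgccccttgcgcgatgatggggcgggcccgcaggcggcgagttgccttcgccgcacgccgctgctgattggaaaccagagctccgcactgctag
Psme2: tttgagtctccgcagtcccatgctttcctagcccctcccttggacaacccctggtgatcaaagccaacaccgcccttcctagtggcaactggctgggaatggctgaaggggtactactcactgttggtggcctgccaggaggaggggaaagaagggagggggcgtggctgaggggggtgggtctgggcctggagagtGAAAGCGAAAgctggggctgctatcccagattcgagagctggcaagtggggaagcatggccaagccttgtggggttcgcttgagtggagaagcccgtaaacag
Psme1: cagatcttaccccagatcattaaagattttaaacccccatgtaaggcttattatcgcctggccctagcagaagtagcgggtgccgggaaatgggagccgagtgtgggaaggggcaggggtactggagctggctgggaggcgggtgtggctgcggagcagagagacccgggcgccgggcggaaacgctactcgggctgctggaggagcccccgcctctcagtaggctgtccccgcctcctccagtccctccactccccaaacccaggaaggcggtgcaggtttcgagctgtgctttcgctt

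Among the activators, the PA28 genes rose and the nuclear activators did not. Psme1 (PA28 alpha) had 429, 370.4 and 402 CPM in the Dox/control libraries, against 86.5, 117 and 133 CPM in the NoDox/control libraries. With doxorubicin it had 358, 342 and 363 CPM under miR-222, against 174, 172 and 176 CPM without the drug. Under miR-455 it had 366, 391 and 371 CPM, against 151, 101 and 165 CPM, and under both mimics 320.2, 337 and 366 CPM, against 141, 151 and 142 CPM. In each of the 4 conditions every library with doxorubicin was above every library without. The rises were 1.03 ± 0.18 (adjusted p = 0.000687) with miR-222, 1.44 ± 0.18 (adjusted p = 2.7e-05) with miR-455, 1.24 ± 0.18 (adjusted p = 0.00014) with both, and 1.84 ± 0.19 (adjusted p = 8.7e-07) with the control mimic. The 4 comparisons share no library. RefSeq names 3 further copies of Psme1, and the gene overlaps Emc9, so reads of these could not be told apart here.

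Psme2 (PA28 beta) had 37.7, 56.1 and 57.6 CPM with doxorubicin and the control mimic, against 25.04, 27.0 and 39.7 CPM without the drug, and the groups overlapped. Under miR-222 it had 64.0, 62.9 and 61.1 CPM, against 42.8, 47.5 and 57.5 CPM. It had 37.5, 43.4 and 43.5 CPM, against 25.4, 25.9 and 23.7 CPM, under miR-455, and 49.2, 64.7 and 44.6 CPM, against 29.5, 33.9 and 25.9 CPM, under both. Outside the control mimic the groups with and without the drug did not overlap. Psme2 rose by 0.73 ± 0.21 with miR-455 (adjusted p = 0.0211), 0.83 ± 0.21 with both mimics (adjusted p = 0.0119) and 0.72 ± 0.21 with the control mimic (adjusted p = 0.0153), and differed by 0.35 ± 0.21 with miR-222 (adjusted p = 0.316). The control-mimic call was lost without Dox/control 2 (adjusted p = 0.0611), Dox/control 3 (0.07), NoDox/control 1 (0.125) or NoDox/control 2 (0.102). The miR-455 call was lost without each of its libraries but Dox/miR-455 1 (adjusted p 0.0565 to 0.0825) and that with both mimics without Dox/both 2 (adjusted p = 0.0518). Psme4 (PA200), an activator found in the nucleus, fell by -0.56 ± 0.13 over the mean of the 4 conditions (adjusted p = 0.00157). Psme3 (PA28 gamma), also nuclear, and Psmf1 (PI31), an inhibitor of the core in vitro, were not called in any doxorubicin comparison.

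Genes that belong to the same programmes as the inducible subunits are given from lists. Of 13 genes of MHC class I peptide loading, 8 rose and none fell with doxorubicin and the control mimic, beside 15.2% higher among all genes, among them Tap1, the peptide transporter (3.58 ± 0.80), and B2m, the class I light chain (1.81 ± 0.39). Over the mean of the 4 conditions 9 of 13 rose, beside 23.8%, with the smallest p for RT1-S3 (2.27 ± 0.25), Erap1 (0.85 ± 0.10), Pdia3 (0.94 ± 0.11) and B2m (1.47 ± 0.19). Nlrc5, the class I transactivator, was not called (0.90 ± 0.57, adjusted p = 0.204). Of 20 interferon-stimulated genes, 14 rose with the control mimic (beside 15.2% of all genes), 15 with miR-455 (9.02%), 2 with miR-222 (7.76%) and 2 with both mimics (7.85%), and none fell. Whether these counts differ was not tested. Over the mean of the 4 conditions the smallest p-values were those of Irf7 (3.17 ± 0.17), Gbp2 (2.70 ± 0.22), Bst2 (3.01 ± 0.38) and Mx2 (2.85 ± 0.38). Irf1, which drives immunoproteasome genes, fell by -0.49 ± 0.18 (adjusted p = 0.0347), a call lost without Dox/miR-222 1 (adjusted p = 0.0621), Dox/miR-222 3 (0.0531), Dox/miR-455 1 (0.0596), Dox/miR-455 3 (0.0504), Dox/both 2 (0.0536), Dox/control 1 (0.0529), NoDox/miR-455 1 (0.0672) or NoDox/control 1 (0.0634), and without the 4 gene-poorest libraries (0.0837). Leukocytes and macrophages carry immunoproteasomes without stimulation. Of 10 of their markers 9 were in the table and 6 were tested, and their summed level was 20.9 to 26.0 CPM in the Dox/control libraries and 11.5 to 14.6 CPM in the NoDox/control libraries. Of the 6, Cd14 (1.57 ± 0.29, adjusted p = 0.000483) and Cd74 (4.32 ± 1.50, adjusted p = 0.0373), itself induced by interferon, rose, and Cd68, Csf1r, Lyz2 and Laptm5 were not called, with Csf1r at -2.03 ± 0.91 (adjusted p = 0.104). Adgre1 was at 0 in all libraries of 4 groups. The part of such cells in the result was not tested.

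In the 20S alpha ring, doxorubicin under the control mimic was called for 2 of 7 tested genes, 1 in each direction, a share near the 27.5% of all genes. Psma5 had 26.9, 32.2 and 35.1 CPM with doxorubicin, against 44.6, 49.8 and 55.1 CPM without, and no library with the drug reached any without it. Its fall was -0.67 ± 0.18 (adjusted p = 0.00971), and its further falls were -0.67 (miR-222), -0.64 (miR-455) and -0.66 (both) (adjusted p = 0.0151, 0.018 and 0.0178). Each mimic call was lost when some single libraries were left out (adjusted p 0.0556 to 0.0702, 0.0578 to 0.112 and 0.0565 to 0.102): without Dox/miR-222 1 or 3 or NoDox/miR-222 1 or 2, without Dox/miR-455 1 or 2 or NoDox/miR-455 3, and without Dox/both 1 or 3 or NoDox/both 1 or 2. RefSeq names 1 copy of Psma5. Psma1 went the other way (0.48 ± 0.14, adjusted p = 0.0158), a call lost without Dox/control 1 (adjusted p = 0.0612), NoDox/control 1 (0.098) or NoDox/control 2 (0.0822), and its sign turned to -0.24 on totals without TMM. Psma2 was called higher for the mean of the 4 conditions (0.46 ± 0.15, adjusted p = 0.0183, but -0.064 without TMM), and Psma3, Psma4, Psma6 and Psma7 in no doxorubicin comparison. Without the 4 gene-poorest libraries, Psma3 was called higher with both mimics (0.91 ± 0.26, adjusted p = 0.0139). Psma4 was then also called lower with miR-455 (-0.49 ± 0.14, adjusted p = 0.0121) and over the mean (-0.40 ± 0.08, adjusted p = 0.000371).

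In the constitutive beta ring, Psmb1, a non-catalytic subunit, had 188, 152 and 180.3 CPM with doxorubicin and the control mimic, against 97.6, 111 and 122 CPM without, and the groups did not overlap. It rose by 0.65 ± 0.15 (adjusted p = 0.00333) but differed by -0.069 on totals without TMM, so its direction depends on the scaling, and the gene overlaps Tbp. Psmb2, also non-catalytic, was the 1 member called in opposite directions: -0.52 ± 0.19 with the control mimic (adjusted p = 0.0433) and 0.59 ± 0.19 with both mimics (adjusted p = 0.0382). Psmb2 had 51.9, 30.7 and 41.7 CPM in the Dox/control libraries, against 55.6, 63.5 and 59.1 CPM in the NoDox/control libraries, and 85.5, 95.6 and 124 CPM in the Dox/both libraries, against 67.0, 66.5 and 69.6 CPM in the NoDox/both libraries. The first pair lies apart with the drug lower, the second with the drug higher. The control-mimic call was lost without Dox/control 2 (adjusted p = 0.203), Dox/control 3 (0.0902) or NoDox/control 2 (0.0735), and that with both mimics without Dox/both 3 (adjusted p = 0.195), NoDox/both 1 (0.0917) or NoDox/both 2 (0.0942). Psmb3 and Psmb4 were not called in any doxorubicin comparison.

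The ATPase ring of the 19S cap held no gene that rose with the control mimic and 2 of 6 that fell. Among all genes 15.2% rose and 12.3% fell. Psmc6 had 66.5, 31.9 and 41.3 CPM with doxorubicin, against 152, 90.6 and 85.5 CPM without, and every library with the drug was lower. It fell by -1.23 ± 0.30 (adjusted p = 0.0045); with miR-455 it fell by -0.92 ± 0.30 (adjusted p = 0.0355), a call lost without each of its libraries but NoDox/miR-455 2 (adjusted p 0.0716 to 0.119). RefSeq names 2 copies of Psmc6, and it overlaps Styx. Psmc5 fell by -0.65 ± 0.20 (adjusted p = 0.0216), lost without Dox/control 2 (adjusted p = 0.0684) or Dox/control 3 (0.0569). Over the mean of the 4 conditions Psmc2 (-0.35 ± 0.12), Psmc5 (-0.34 ± 0.10) and Psmc6 (-0.79 ± 0.15) fell and none rose. Of all genes 24.3% fell and 23.8% rose over that mean. Psmc4 was called higher with both mimics (0.75 ± 0.24, adjusted p = 0.0415), lost without Dox/both 2 (adjusted p = 0.106), Dox/both 3 (0.106), NoDox/both 1 (0.136) or NoDox/both 2 (0.129).

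The non-ATPase subunits of the cap moved both ways: with the control mimic 3 of 11 rose and 4 fell. Among all genes 15.2% rose and 12.3% fell. Psmd14, the deubiquitinase that removes ubiquitin from substrates at the cap, had 26.9, 24.999 and 27.4 CPM with doxorubicin, against 91.5, 56.8 and 49.3 CPM without, with no overlap. It fell by -1.32 ± 0.26 (adjusted p = 0.000926). Under the mimics its level without the drug was nearer to that with it: 26.4, 22.6 and 27.0 CPM, against 26.8, 25.8 and 40.6 CPM, under miR-222, 27.9, 29.7 and 25.2 CPM, against 30.1, 42.4 and 31.8 CPM, under miR-455, and 26.5, 37.6 and 31.8 CPM, against 30.6, 32.3 and 52.7 CPM, under both. None of these 3 differences was called (-0.29, -0.33 and -0.27), and the 4 Dox groups cover much the same range. Psmd11, a scaffold subunit of the lid, fell in all 4 conditions, by -0.88 ± 0.21 with miR-222, -0.71 ± 0.21 with miR-455, -0.87 ± 0.21 with both and -0.77 ± 0.21 with the control mimic (adjusted p = 0.00628, 0.0207, 0.00673 and 0.00864), and groups overlapped in none. The miR-455 call was lost without each of its libraries but NoDox/miR-455 2 (adjusted p 0.0534 to 0.0868). Its lid neighbour Psmd12 fell with miR-222 (-0.85 ± 0.23), both mimics (-0.72 ± 0.23) and the control mimic (-1.06 ± 0.23, adjusted p = 0.00222); the call with miR-222 was lost without Dox/miR-222 2 (adjusted p = 0.0756) or NoDox/miR-222 3 (0.0567), and that with both without Dox/both 1 (adjusted p = 0.119), Dox/both 3 (0.0936) or NoDox/both 3 (0.255) or without the 4 gene-poorest libraries (0.0681). Psmd7, the partner of Psmd14 in the lid, fell with the control mimic (-0.60 ± 0.21, adjusted p = 0.0407), lost without each of its libraries but NoDox/control 3 (adjusted p 0.0518 to 0.0994). Psmd4, a ubiquitin receptor, fell by -0.34 ± 0.10 over the mean of the 4 conditions.

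Psmd8, Psmd13 and Psmd2 were called higher, opposite to most of the called non-ATPase subunits. Psmd8, a lid subunit, rose by 0.93 ± 0.24 with the control mimic (adjusted p = 0.00622), lost without Dox/control 2 (adjusted p = 0.0635). Psmd13, also of the lid, had 119, 143 and 114 CPM with doxorubicin and the control mimic, against 77.0, 66.0 and 86.4 CPM without, a rise of 0.71 ± 0.16 (adjusted p = 0.00307); with miR-455 it rose by 0.49 ± 0.16 (adjusted p = 0.0407), lost without any 1 of its 6 libraries (adjusted p 0.0921 to 0.167). Psmd2, a large base subunit that docks shuttle factors, rose with miR-222 (0.89 ± 0.18, adjusted p = 0.002), both mimics (0.84 ± 0.18, adjusted p = 0.00319) and the control mimic (0.53 ± 0.18, adjusted p = 0.0304); the last call was lost without Dox/control 2 (adjusted p = 0.133), Dox/control 3 (0.0751), NoDox/control 1 (0.185) or NoDox/control 2 (0.184), its groups overlapped, and its sign turned to -0.13 without TMM. The calls of Psmd8 and Psmd13 with the control mimic were also lost on totals without TMM.

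Assembly factors divided between the maturation factor of the core and its ring chaperones. Pomp, which binds core intermediates and is degraded as they mature, had 126, 193 and 168 CPM with doxorubicin and miR-222, against 85.3, 84.5 and 85.1 CPM with miR-222 alone. It had 165, 179.8 and 176 CPM, against 90.2, 69.6 and 95.9 CPM, with miR-455 and 164, 132 and 139 CPM, against 85.6, 92.6 and 83.3 CPM, with both mimics. With the control mimic it had 164, 127 and 166 CPM with doxorubicin, against 61.8, 56.6 and 79.2 CPM without. In all 4 conditions every library with the drug was above every library without, and Pomp rose by 0.94 ± 0.19 (miR-222), 1.03 ± 0.19 (miR-455), 0.74 ± 0.19 (both) and 1.21 ± 0.19 (control mimic) (adjusted p = 0.00209, 0.000864, 0.0116 and 0.000101). No single library was needed for any of these calls; on totals without TMM those with miR-222 and with both mimics were lost. RefSeq names 2 copies of Pomp. In contrast, Psmg1, Psmg2 and Psmg4, chaperones of alpha ring assembly, fell with the control mimic by -0.90 ± 0.31, -0.92 ± 0.26 and -1.10 ± 0.30 (adjusted p = 0.037, 0.012 and 0.00951). The Psmg1 call was lost without Dox/control 1 (adjusted p = 0.0505), Dox/control 2 (0.0849), Dox/control 3 (0.106) or NoDox/control 1 (0.202), and the Psmg2 call without Dox/control 2 (adjusted p = 0.0599) or NoDox/control 1 (0.0574). Psmd5, a chaperone of the ATPase base, fell with miR-222 (-0.82 ± 0.26, adjusted p = 0.0429) and both mimics (-0.92 ± 0.27, adjusted p = 0.0237). Both calls were lost without some single libraries (adjusted p 0.0869 to 0.202 and 0.0612 to 0.132): Dox/miR-222 1, 2 or 3, NoDox/miR-222 1 or 2, Dox/both 1 or 2, and NoDox/both 1 or 2. Of the other base chaperones, Psmd9 fell over the mean of the 4 conditions (-0.60 ± 0.23, adjusted p = 0.0368), lost without any 1 of 12 single libraries (adjusted p 0.0515 to 0.0708), and Psmd10 was not called. Psmg3, the partner of Psmg4, was not called either. Without the 4 gene-poorest libraries, both Psmd10 (-0.48 ± 0.17, adjusted p = 0.0211) and Psmg3 (-0.52 ± 0.15, adjusted p = 0.00702) were called lower over that mean.

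Across the 4 doxorubicin comparisons, which share no library, Psme1 and Pomp were called higher in every one and Psma5 and Psmd11 lower in every one. Of the 47 genes, 23 were called in at least 1 of them and 24 in none. The matching shares over all genes were not counted, so these numbers are not read as particular to the proteasome genes. With miR-222, 3 rose and 4 fell (14.9% called, beside 14.6% of all genes, 7.76% higher and 6.87% lower), and with miR-455 5 rose and 3 fell (17%, beside 18.1%, 9.02% higher and 9.11% lower). Both shares are near the background, and leaving out mitochondrially encoded genes gave 4 and 4 with miR-455. With both mimics 7 rose and 4 fell (23.4%, beside 15.1%, 7.85% higher and 7.24% lower). With miR-455 the count was 3 without Dox/miR-455 2, NoDox/miR-455 1 or NoDox/miR-455 3 and 4 without Dox/miR-455 1 or 3. With both mimics it was 7 without Dox/both 2 and 6 without Dox/both 3, NoDox/both 1 or NoDox/both 2. Without the 4 gene-poorest libraries the counts were 15 (miR-222), 16 (miR-455) and 20 (both mimics). On totals without TMM, 1 rose and 14 fell with miR-222, 2 rose and 12 fell with miR-455, and 1 rose and 11 fell with both mimics. Whether the counts differ between mimic conditions was not tested. Shares over all genes are not given for the runs with libraries left out or without TMM.

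**Figure D3:**
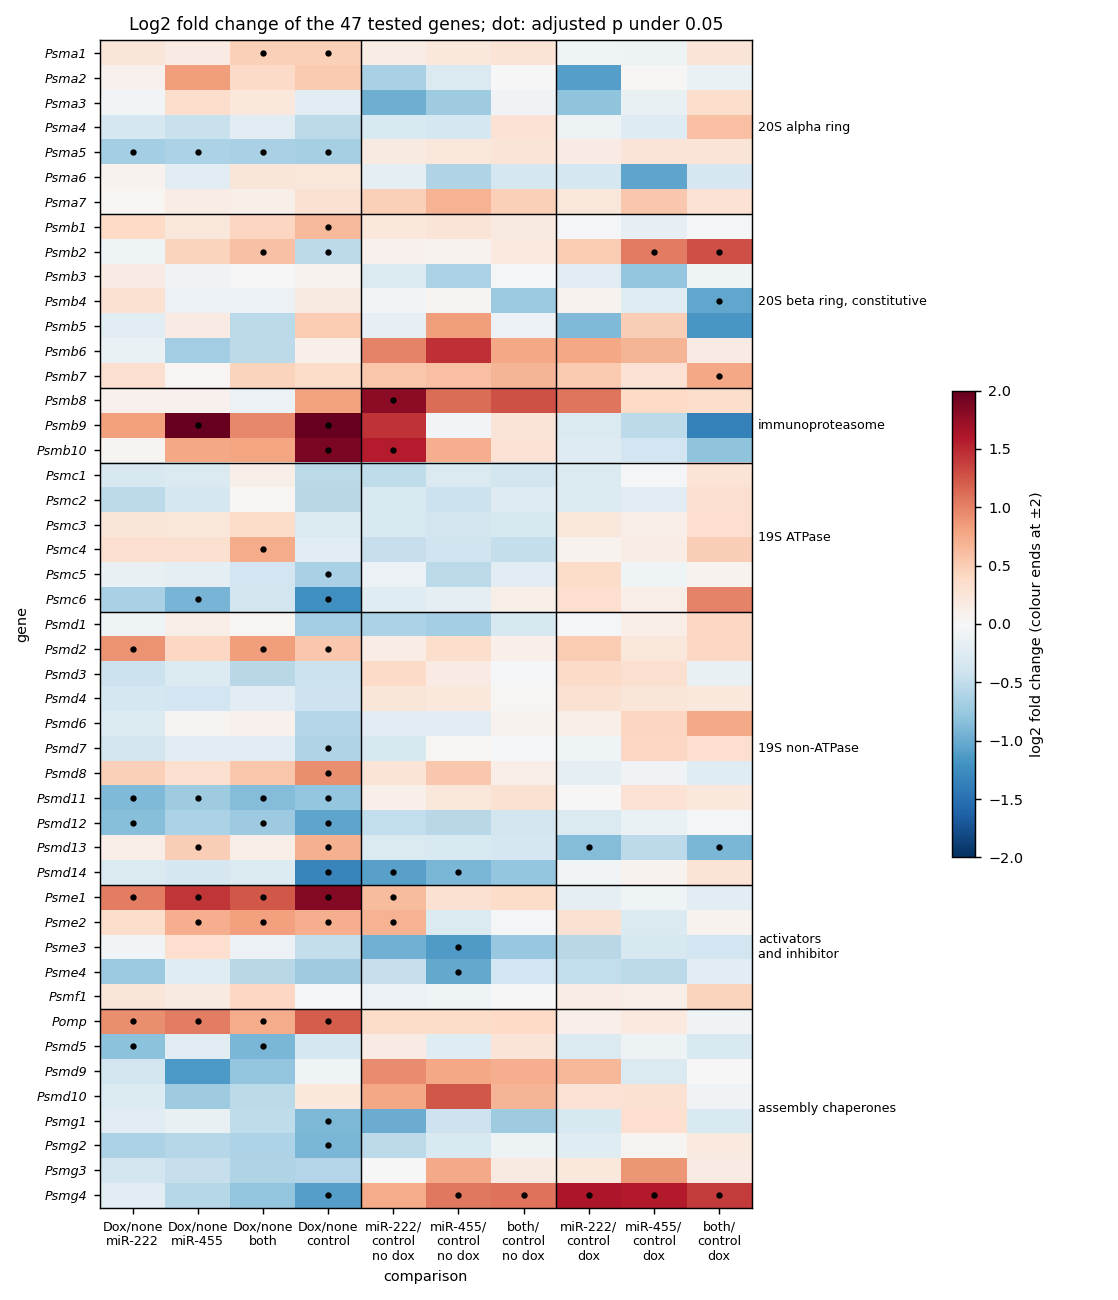
Log2 fold change (colour, red higher and blue lower, ending at 2 in either direction) of the 47 tested proteasome genes (rows, by role) in 10 comparisons (columns): doxorubicin over none under each mimic, and each mimic over the control mimic without and with doxorubicin. Dots mark genes called at an adjusted p of 0.05; the rows of Psme1, Pomp, Psma5 and Psmd11 carry a dot in all 4 doxorubicin columns, and that of Psmg4 in all 3 mimic columns with doxorubicin.

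With miR-222 and no doxorubicin, Psmb8, Psmb10, Psme1 and Psme2 rose and Psmd14 fell, 5 of 47 genes (10.6% called, beside 8.97% of all genes, 4.5% higher and 4.47% lower). That share is near the background. Psmb8 had the values given above, 7.99 to 10.1 CPM with miR-222, against 0.639 to 4.02 CPM with the control mimic, a rise of 1.79 ± 0.48 (adjusted p = 0.0262). Psmb10 rose by 1.58 ± 0.47 (adjusted p = 0.042), Psme1 by 0.63 ± 0.18 (adjusted p = 0.035) and Psme2 by 0.69 ± 0.21 (adjusted p = 0.047), while Psmb9 differed by 1.45 ± 0.56 (adjusted p = 0.102). The Psmb10 groups overlapped. With DESeq2 size factors, or with mitochondrially encoded genes left out, 3 rose and 2 fell. The count of 5 was 0 without NoDox/miR-222 1 or NoDox/control 1, 1 without NoDox/miR-222 2 or NoDox/control 2, and 3 without NoDox/miR-222 3. The Psmb8 call was lost without NoDox/miR-222 1 (adjusted p = 0.0987), NoDox/miR-222 2 (0.105), NoDox/control 1 (0.0883) or NoDox/control 2 (0.0587), and that of Psmb10 without NoDox/miR-222 1 (adjusted p = 0.0608), NoDox/miR-222 3 (0.316), NoDox/control 1 (0.195) or NoDox/control 2 (0.0999); without NoDox/miR-222 3 the Psmb10 difference was 0.65. The Psme1 call was lost without NoDox/miR-222 1 (adjusted p = 0.145), NoDox/miR-222 2 (0.139), NoDox/miR-222 3 (0.0719), NoDox/control 1 (0.229) or NoDox/control 2 (0.0928), and that of Psme2 without NoDox/miR-222 1 (adjusted p = 0.106), NoDox/miR-222 2 (0.15), NoDox/miR-222 3 (0.145), NoDox/control 1 (0.246) or NoDox/control 2 (0.176). Without the 4 gene-poorest libraries Psmb8 was 1.28 ± 0.29 higher (adjusted p = 0.00674), Psmb9 0.97 ± 0.28 higher (adjusted p = 0.0235) and Psme2 0.53 ± 0.17 higher (adjusted p = 0.0395), and Psmb10 and Psme1 were not called. In the same libraries 10 of 20 interferon-stimulated genes rose and none fell, Irf1 among them (1.33 ± 0.37), as did Tap1 (2.67 ± 0.77), the only called gene of the class I list. The summed leukocyte and macrophage markers were 8.79 to 17.0 CPM with miR-222 and 11.5 to 14.6 CPM with the control mimic, so those ranges overlap, and of the 6 tested Cd74 rose (5.33 ± 1.53, adjusted p = 0.0356).

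With miR-455 and no doxorubicin, Psmg4 rose by 1.06 ± 0.29 (adjusted p = 0.0422), while Psmd14 (-0.92 ± 0.26), Psme3 (-1.14 ± 0.32) and Psme4 (-1.02 ± 0.27) fell (adjusted p = 0.0463, 0.0483 and 0.0352). These 4 genes were 8.51% of the members, beside 4.72% of all genes, 2.47% higher and 2.25% lower. The count was 0 without NoDox/miR-455 1 or 3 or NoDox/control 1 or 2, 3 without NoDox/control 3 and 10 without NoDox/miR-455 2. On totals without TMM 0 rose and 3 fell. By the chi-square of their counts per degree of freedom, 6 replicate pairs were far closer than the rest, at 5.79 to 9.79 against 51.4 or more: NoDox/miR-222 1 and 2, NoDox/miR-455 1 and 3, NoDox/both 1 and 2, and all 3 Dox/miR-455 pairs. With both mimics Psmg4 alone was called (1.09 ± 0.29, adjusted p = 0.0292), 2.13% beside 7.06% of all genes, 3.67% higher and 3.39% lower. That count was 0 without NoDox/both 1 or 2 or NoDox/control 1 or 2, and 11 without NoDox/both 3. The Psmg4 call was lost without NoDox/miR-455 1 (adjusted p = 0.191), NoDox/miR-455 3 (0.191), NoDox/control 1 (0.192), NoDox/control 2 (0.101) or NoDox/control 3 (0.0589) for miR-455 and without NoDox/both 1 (adjusted p = 0.125), NoDox/both 2 (0.142), NoDox/control 1 (0.115), NoDox/control 2 (0.0781) or NoDox/control 3 (0.0696) for both mimics. Psmd14 fell by -1.08 ± 0.26 with miR-222 (adjusted p = 0.0146), lost without NoDox/miR-222 1 (adjusted p = 0.0776), NoDox/miR-222 2 (0.0796) or NoDox/control 1 (0.0836), and differed by -0.77 ± 0.26 with both mimics (adjusted p = 0.074). All 3 comparisons share the NoDox/control libraries, in which Psmd14 ranged widely.

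With doxorubicin, Psmg4 was higher with every mimic than with the control mimic. It had 6.24, 11.7 and 8.44 CPM in the Dox/miR-222 libraries, 9.91, 7.83 and 8.05 CPM in the Dox/miR-455 libraries and 9.15, 8.71 and 4.80 CPM in the Dox/both libraries, against 2.73, 2.37 and 3.48 CPM in the Dox/control libraries. Without the drug it had 10.98, 10.6 and 9.26 CPM with miR-222, 13.4, 10.6 and 14.3 CPM with miR-455 and 13.8, 14.8 and 10.6 CPM with both mimics, against 5.45, 6.74 and 6.21 CPM with the control mimic. Under either treatment every library with a mimic lay above every library with the control mimic. The rises with doxorubicin were 1.62 ± 0.30 with miR-222 (adjusted p = 0.00294), 1.59 ± 0.30 with miR-455 (adjusted p = 0.00476) and 1.40 ± 0.30 with both (adjusted p = 0.00694), and no single library was needed for them. They share the Dox/control libraries, as does the fall of Psmg4 with doxorubicin under the control mimic. RefSeq names 3 further copies of Psmg4. Sem1, a small subunit of the lid whose symbol falls outside the naming pattern, was also higher with the mimics. It had 79.7, 98.5 and 92.2, then 57.8, 70.0 and 71.2, then 72.8, 96.5 and 95.3 CPM with doxorubicin and miR-222, miR-455 and both, against 24.6, 23.4 and 21.0 CPM with the control mimic. Without the drug it had 47.3, 53.8 and 52.1, then 38.7, 26.0 and 43.1, then 39.6, 45.8 and 69.7 CPM, against 26.1, 19.001 and 15.1 CPM, where NoDox/miR-455 2 lay below NoDox/control 1. It was called higher in all 6 mimic comparisons, by 1.97 ± 0.25, 1.53 ± 0.24 and 1.94 ± 0.25 with doxorubicin and by 1.35 ± 0.24, 0.84 ± 0.24 and 1.37 ± 0.24 without (adjusted p = 6.96e-05, 0.000994, 6.32e-05, 0.00228, 0.0482 and 0.00258); of these, the miR-455 call without the drug was lost without NoDox/miR-455 1 (adjusted p = 0.212), NoDox/miR-455 3 (0.243), NoDox/control 1 (0.0637), NoDox/control 2 (0.139) or NoDox/control 3 (0.0943).

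**Figure D4:**
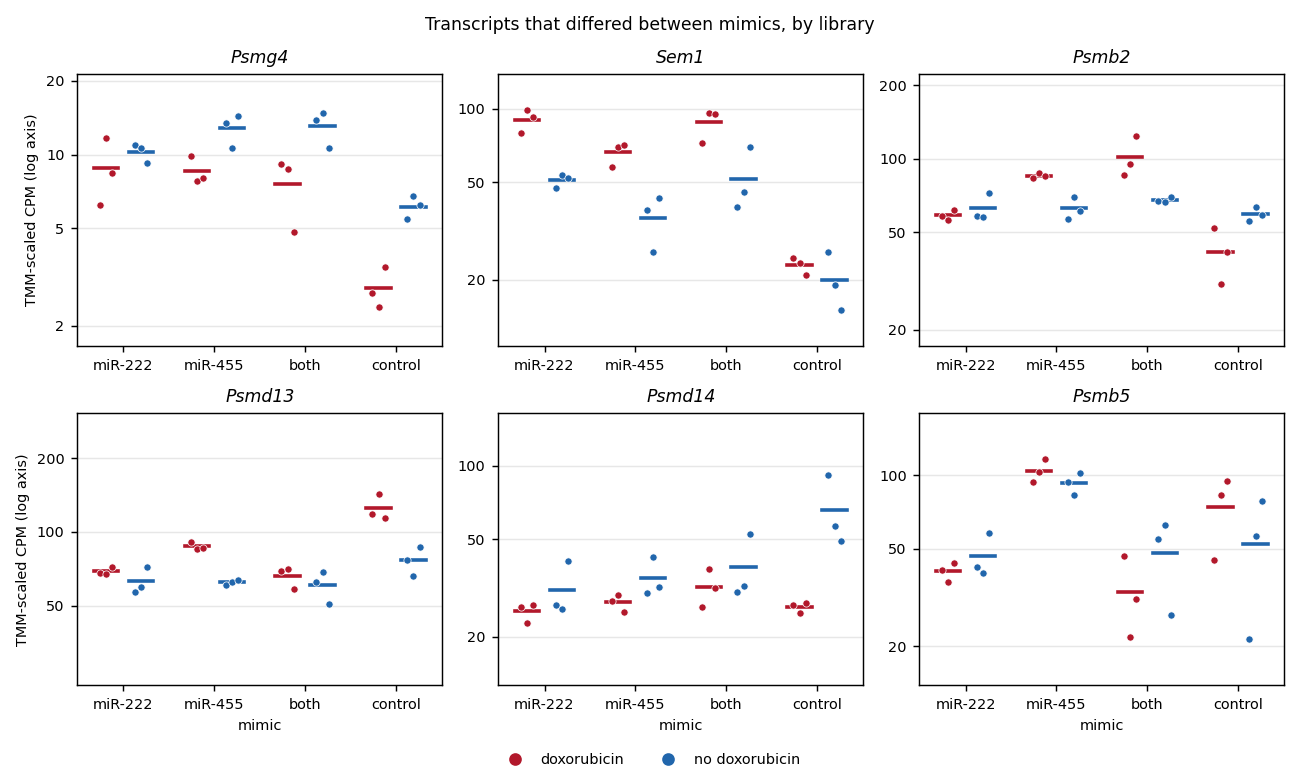
TMM-scaled CPM (y axis, log scale) of Psmg4, Sem1, Psmb2, Psmd13, Psmd14 and Psmb5 in each of the 24 libraries, by mimic (x axis); red points are libraries with doxorubicin, blue points libraries without, and bars are group means of 3. Psmg4 lies lowest under the control mimic with either treatment, Sem1 does so with doxorubicin, and Psmb2 runs higher in red under miR-455 and both mimics than under the control mimic.

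Other members differed between mimics under doxorubicin. With miR-222, Psmd13 was lower (-0.86 ± 0.16, adjusted p = 0.00372), so that 2 members were called (4.26%, beside 3.95% of all genes, 1.59% higher and 2.36% lower). Psmd13 had 68.1, 67.0 and 71.6 CPM with miR-222 and 69.3, 70.5 and 58.5 CPM with both mimics, against 119, 143 and 114 CPM with the control mimic, with no overlap; with both it was lower by -0.92 ± 0.16 (adjusted p = 0.00165). With miR-455, Psmb2 was higher, 83.6, 87.6 and 84.8 CPM, against 51.9, 30.7 and 41.7 CPM (1.04 ± 0.19, adjusted p = 0.00307), 2 called in all (4.26%, beside 2.5%, 0.657% higher and 1.85% lower). With both mimics 3 rose, Psmb2 (1.29 ± 0.19, adjusted p = 0.000237), Psmg4 and Psmb7 (0.77 ± 0.21, adjusted p = 0.0334), and 2 fell, Psmd13 and Psmb4 (-1.05 ± 0.28, adjusted p = 0.0285), 10.6% beside 5.55% of all genes, 2.78% higher and 2.78% lower. The Psmb7 call was lost without each of its libraries but Dox/both 1 (adjusted p 0.0519 to 0.17) and without the 4 gene-poorest (0.0695), and the Psmb4 groups overlapped and its call was lost without Dox/both 2 (adjusted p = 0.123), Dox/both 3 (0.112), Dox/control 2 (0.112) or Dox/control 3 (0.132). On totals without TMM, 4 rose and 0 fell with miR-222, and 7 rose and 1 fell with both mimics; with DESeq2 size factors 1 rose and 2 fell with miR-222. The count with both mimics was 8 without Dox/both 1 and 3 without Dox/both 2 or 3 or Dox/control 2 or 3. Set against miR-455 alone under doxorubicin, both mimics gave less Psmb5, 46.7, 21.8 and 31.2 CPM, against 94.2, 103 and 116 CPM (-1.65 ± 0.39, adjusted p = 0.028), the only member called (2.13%, beside 2.48%, 1.55% higher and 0.93% lower). That call was lost without Dox/miR-455 1 (adjusted p = 0.0781), Dox/miR-455 2 (0.0881), Dox/miR-455 3 (0.121), Dox/both 2 (0.175) or Dox/both 3 (0.0966), and 4 members were called without Dox/both 1. Set against miR-222 alone none was called, beside 0.161% of all genes, all of them lower; DESeq2 called 2.

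Whether the doxorubicin effect itself differed with a mimic was tested as the effect with the mimic minus that with the control mimic. No member was called for miR-222, for miR-455 or for both mimics with edgeR, beside 0.0489%, 0% and 0.0559% of all genes; those higher were 0.00699%, 0% and 0.00699%, and those lower 0.0419%, 0% and 0.0489%. At an unadjusted p under 0.05 there were 6, 3 and 6 members, and DESeq2 called 0, 1 and 1. With both mimics edgeR called 5 without NoDox/both 3 and 6 without the 4 gene-poorest libraries. The member nearest to the threshold was Psmb2 with both mimics, a difference of 1.11 ± 0.26 (adjusted p = 0.0837), and Psmb2 was also nearest with miR-455 (0.97 ± 0.26, adjusted p = 0.235), where DESeq2 (adjusted p = 0.0164) and the fit without the 4 gene-poorest libraries (adjusted p = 0.0444) called it. With both mimics the Psmb2 difference was called by DESeq2 (1.12, adjusted p = 0.00188), without NoDox/both 3 (1.20, adjusted p = 0.0254) and without the 4 gene-poorest libraries (1.47, adjusted p = 0.0111); the other alternatives gave an adjusted p of 0.0506 to 0.7. Psme1 was nearest with miR-222 (-0.81 ± 0.25, adjusted p = 0.264).

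The factors that act around the proteasome were read from further lists. Of 8 genes of the Nfe2l1 pathway, through which cells replace lost proteasomes, none was called with doxorubicin and the control mimic. Among all genes 27.5% were called. Nfe2l1 itself differed by 0.09 ± 0.34 (adjusted p = 0.871) and, over the mean of the 4 conditions, by -0.32 ± 0.17 (adjusted p = 0.133). Without the 4 gene-poorest libraries the difference over the mean was called (-0.39, adjusted p = 0.00624). Over the mean of the 4 conditions Nfe2l3, a relative of Nfe2l1, rose by 2.79 ± 0.67 and Ddi2, the protease that activates Nfe2l1, fell by -0.34 ± 0.11. Nfe2l3 was near zero throughout, at 0 to 1.05 CPM with doxorubicin and 0 to 0.242 CPM without, so its fold change is uncertain. Of 14 proteasome-bound and shuttle factors, 6 fell and none rose with the control mimic, beside 12.3% lower among all genes; over the mean 7 fell, beside 24.3%, with the smallest p for Ecpas (-0.81 ± 0.10), Zfand5 (-0.84 ± 0.13), Akirin2 (-0.74 ± 0.12), which imports proteasomes into the nucleus, and Rad23b (-0.67 ± 0.11), a ubiquitin shuttle, and Sem1 rose. Among the ubiquitin genes, over the mean, Rps27a, which encodes ubiquitin fused to a ribosomal protein, rose by 1.23 ± 0.18, and the activating enzyme Uba1 by 0.26 ± 0.09. The Uba1 sign turned to -0.25 on totals without TMM. Of 8 muscle ubiquitin ligases, 3 fell, the atrophy ligases Fbxo40 (-3.91 ± 0.24), Trim63 (-3.28 ± 0.21) and Fbxo32 (-2.46 ± 0.23), and 3 rose, among them Stub1 (0.37 ± 0.08), whose sign turned to -0.14 without TMM; among all genes 24.3% fell and 23.8% rose.

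The members left out of testing were near zero. Psmb11, the thymus-specific catalytic subunit, had 20 counts over the 12 libraries with doxorubicin, in 6 of them and at most 6 in any, and 0 counts over the 12 without, where a total of 0 allows up to 3 counts. Psma8, a testis-specific alpha subunit, had 19 counts over the 12 libraries with doxorubicin and 7 over the 12 without, at most 9 in any library, and it overlaps Ss18. Counting floors cover counting error only.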

How the data were processed

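The deposited values are the authors' expected counts per gene symbol in 24 polyA RNA-seq libraries. The submitters' processing notes name Salmon, DESeq2 and the build Rnor_6.0; their versions and roles were not stated in the sources used. Of the values, 7.35% were not whole, and all were rounded. Testing used edgeR 4.0.16 (R 4.3.3). Genes were filtered with filterByExpr, 14303 remaining, libraries were scaled by TMM, and 8 group means were fitted to every library. Each comparison used the quasi-likelihood F test, adjusted by Benjamini-Hochberg across genes; the standard error is the size of the log2 fold change over the square root of F. The method was checked on simulated counts for doxorubicin with the control mimic, where most 2-fold changes were not called. Only 200 genes were changed there, while 3936 were called in the data, so that share does not carry over to the data. A gene not called here may still differ.

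Members and lists were chosen with earlier results of these data known. Any member could be named. Library values were to be printed for Psmb5 to Psmb10, Psme1, Psme2, Pomp and the member with the smallest p of each role in doxorubicin with the control mimic; those of Psmb2, Psmd13, Psmg4 and Sem1 were added after seeing values. Of each companion list, up to 4 genes with the smallest p over the mean doxorubicin effect were named, and always Nfe2l1, Irf1 and Nlrc5; Sem1 and Tap1 were added after seeing values. Some genes the rule names are not reported here. Alternatives were DESeq2 1.42.0 and its size factors, 2 other filters on low counts, a replicate block, only the groups compared, leaving out each library, and leaving out the 4 gene-poorest.

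RefSeq names copies of 20 of the 49 members, and 5 overlap another gene of the table; strandedness was not given in the sources used here. Gene lengths were not used, so levels are not compared between genes.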

Additional observations from a re-analysis of the deposited data

Results flagged for a closer look

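Psmb11, the thymus-specific catalytic subunit, is not part of any comparison because its counts were too low to test. It had 20 counts over the 12 libraries with doxorubicin, in 6 of them, against 0 counts over the 12 libraries without, where a total of 0 allows up to 3. No group test was made at this depth.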

How the results depend on the processing

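Of 141 gene and comparison pairs recomputed, 125 were called, 48 of these kept the call and the sign in every alternative run, 72 lost the call in at least 1 and 10 changed sign in at least 1. Doxorubicin with the control mimic called 4 members when only the groups compared, 6 libraries, were fitted. The same setting called 13 (miR-222), 22 (miR-455) and 0 (both). It called 0 in all 6 comparisons of a mimic with the control mimic and for both mimics against miR-455. With no filter, 7 were called for doxorubicin with both mimics and, without doxorubicin, 2 for miR-222, 1 for miR-455 and 0 for both. Without the 4 gene-poorest libraries, more were called: 15, 16 and 20 for doxorubicin with miR-222, miR-455 and both, 8 and 11 for miR-455 and both without the drug, 7, 5 and 11 for miR-222, miR-455 and both with it, 1 and 6 for the difference of effects with miR-455 and both, and 3 and 3 for both mimics against miR-222 and miR-455. The DESeq2 test called 8, 7 and 4 members for miR-222, miR-455 and both without the drug, 5, 5 and 8 with it, 1 and 1 for the difference of effects with miR-455 and both, and 2 and 3 for both against miR-222 and miR-455. The cause of these shifts was not tested. Shares over all genes are not given for any alternative run, so shifts in the counts are not read as particular to the members.

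A block for the replicate number called 3 members for miR-222 and 0 for miR-455 without doxorubicin and 3 for both mimics with it, and left the other counts within 1.5 times. Nothing in the labels ties same-numbered samples, and in none of 12 comparisons did all 3 pairs deviate together (correlations -0.581 to 0.453), so the numbers were not taken as pairs. Leaving out each library in turn gave 14 to 25 members called for doxorubicin with the control mimic, 5 to 6 (miR-222), 3 to 7 (miR-455), 6 to 13 (both) and 26 to 31 over the mean; 0 to 6, 0 to 10 and 0 to 11 for miR-222, miR-455 and both without the drug and 2 to 3, 2 to 2 and 3 to 8 with it; 0 to 0, 0 to 0 and 0 to 5 for the differences of effects; and 0 to 0 and 0 to 4 for both mimics against miR-222 and miR-455.

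Library totals without TMM were chosen after seeing the data. They called 15 and 14 members for doxorubicin with miR-222 and miR-455, 2 for both mimics without the drug, 4 and 8 for miR-222 and both with it and 0 for both against miR-455, and moved the median of all genes by more than 0.1. Signs turned for Psma1 (-0.24), Psmb1 (-0.069) and Psmd2 (-0.13) with the control mimic, for Psmb8 (-0.39), Psmb10 (-0.46) and Psme2 (-0.13) with miR-222, for Psmb8 with miR-455 (-0.30), and over the mean for Psma1 (-0.17), Psma2 (-0.064), Psmb1 (-0.092), Psmb7 (-0.22), Psmd13 (-0.15), Stub1 (-0.14), Uba1 (-0.25) and Vcp (-0.34). Uncalled differences also turned in sign when single libraries were left out: with miR-222 Psmb8 ran from -0.10 to 0.17 and Psmb10 from -0.27 to 0.95, and Psmb8 ran from -0.17 to 0.30 with miR-455 and from -0.44 to 0.28 with both mimics. Leaving out the mitochondrially encoded genes, also chosen after seeing the data, kept every count within 1.5 times. Depth limits Psmb9, Psmd10 and Psmb8 most, whose group means were the lowest of the tested members.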
